A study of Homo sapiens with 36 samples.

Results

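The response of A375TR-NR2F1 melanoma cells to combined BRAF and MEK inhibition was read from 6 RNA-Seq libraries, 3 given BRAFi + MEKi and 3 given DMSO, chosen by their labels from the 36 libraries of the series. A375 is an established BRAF-mutant human melanoma cell line, and the TR-NR2F1 derivative carries a Tet repressor together with NR2F1 cDNA under doxycycline (DOX) control. The control cells received DMSO for 72 hours, and the treated cells received the BRAF inhibitor PLX4720 at 1 μM together with the MEK inhibitor PD0325901 at 35 nM for the same time, both labelled as without DOX. A step of 24 hours with or without DOX at 100 ng/mL came before these treatments. The labels put these 6 libraries among the cells without DOX, whereas the methods text describes DOX in that step without setting any group apart, and whether these cells met DOX in that step is not stated. The 3 other comparisons of the same kind, each of 3 treated and 3 DMSO libraries none of them among these 6, were used to see where the response differed: A375 cells with DOX throughout, and the lines 1205LuTR-NR2F1 and WM793TR-NR2F1 without DOX. The methods state that in vitro replicates came from independent experiments.

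In BRAF-mutant melanoma the mutated kinase BRAF phosphorylates MEK1 and MEK2, and these phosphorylate the ERK kinases, which drive transcription factors of the ETS and AP-1 families and cyclin D1. ERK also switches on its own brakes, the dual-specificity phosphatases (DUSP genes) and the Sprouty proteins, so the RNA of these genes serves as a readout of pathway activity. Cyclin D1 with CDK4 or CDK6 inactivates RB1 and frees the E2F factors that transcribe the DNA replication genes, and the later DREAM and FOXM1 programs act on mitotic genes.

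Each value is normalized expression as the authors deposited it, scaled over all 36 libraries and not adjusted for gene length, so levels are compared between libraries and not between genes. Values of the 6 libraries summed to between 27027824 and 31192155, and the read depth behind them could only be estimated. The estimate, a library's sum over its commonest low value, was highest for BRAFi + MEKi replicate 3. Its commonest low value was 0.52, beside 0.84 to 1.2 in the other libraries. It had 23596 genes above 0, beside 21627 to 22822. The part of depth in other results was not tested. On a line through the group means, with DMSO at 0 and BRAFi + MEKi at 1, BRAFi + MEKi replicate 3 stood at 0.91 and the other treated libraries at 1.04. Mitochondrially encoded mRNAs took 0.673% to 1.33% of the total under DMSO and 1.46% to 1.69% under treatment. Lineage markers of the label were checked. Of 11 melanoma or neural crest markers, SOX10 was listed at 14722 or more in every library, whereas MLANA was at 0 in all 6 and TYR at 0 in 5 of 6. MLANA and TYR were thus absent or near 0 although the lineage factor was present. The other markers of that list were above 0 in every library. MITF was at 685 to 2785, DCT at 2.23 to 13702, PMEL at 25.3 to 153 and S100B at 1307 to 3154. S100A1 was at 666 to 3815, TFAP2A at 370 to 639, PAX3 at 344 to 495 and VIM at 22622 to 106088. Of 6 immune markers 2 were at 0 in all 6 libraries, and the summed values of the immune list were 91.9 to 134.7 under DMSO and 58.0 to 134.5 under treatment. Keratinocyte markers summed to 749 to 969 under DMSO and 629 to 811 under treatment. For endothelial markers the sums were 128 to 201 and 150 to 254, and for red blood cell markers 1.84 to 34.7 and 9.74 to 47.7. Fibroblast markers summed to 438.5 to 1072 under DMSO and 1076 to 1377 under treatment, and the 6 did not move together. COL3A1 was at 2.74 to 4.33 and 105 to 373 and LUM at 169 to 475 and 645 to 836, whereas COL1A1 was at 120 to 248 and 49.4 to 114, COL1A2 at 0 to 4.08 and 0 in all 3, PDGFRA at 104 to 272 and 42.0 to 160, and DCN at 17.5 to 83.0 and 52.0 to 200.3. Their part in other results was not tested.

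BRAFi + MEKi changed about 4 in 10 of the genes tested. Of 24370 genes tested with limma's moderated test on log2(value + 1), restricted to genes whose mean reached 1 in some group, 5007 were called raised and 4628 lowered at a Benjamini-Hochberg adjusted p under 0.05. The background shares were therefore 20.5% raised and 19.0% lowered, and the median log2 fold change over all genes was 0.06. Among these, 2724 rose and 2631 fell by a log2 fold change of at least 1, while 81 rose and 157 fell by at least 4. Rescaling every library to the same total moved the median to 0.21 and the calls to 6359 raised and 3821 lowered, a raised share of 62.5% in place of 52.0%. Without BRAFi + MEKi replicate 3 the calls were 4669 and 4416. In bulk RNA, fewer cells of a kind and less of an RNA per cell cannot be told apart.

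ERK output genes fell together. Of 40 genes listed as ERK feedback and output, 35 fell, 1 rose and 4 did not pass, against background shares of 19.0% and 20.5%, and the list median was -2.20 on the log2 scale beside 0.06 for all genes. DUSP6, the cytosolic ERK phosphatase (chromosome 12 of GRCh38, 89347235 to 89352501), was at 3670, 3979 and 5870 under DMSO and at 505, 461 and 545 under BRAFi + MEKi. The groups did not overlap, and the difference was well beyond their spread (log2 fold change -3.13, SE 0.21, adjusted p = 8.8e-08). SPRY4, a Sprouty inhibitor of receptor signaling, was at 2179, 2322 and 4418 in control cells and at 136, 126 and 113 after treatment (log2 fold change -4.49, SE 0.26). SPRY2 went from 7362, 7582 and 8026 to 1168, 1123 and 1134, with little spread inside either group (log2 fold change -2.74, SE 0.09). Among the phosphatases the change was uneven. DUSP4 and DUSP5, which act on nuclear ERK, fell with log2 fold changes of -1.75 and -2.17, whereas DUSP7 was at 730, 714 and 861 against 655, 722 and 714 and did not pass (adjusted p = 0.44). Of the SPRED inhibitors, SPRED2 and SPRED3 fell (log2 fold changes of -0.75 and -1.13) and SPRED1 did not pass (0.07, adjusted p = 0.71).

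ETV4, an ETS factor (chromosome 17, 43527844 to 43579620), dropped from 3929, 3966 and 5549 to 16.5, 25.2 and 66.8, which made it the third largest fall among the genes named by size (log2 fold change -7.13, SE 0.56, adjusted p = 4e-07). The highest treated library, replicate 3, was still far below the lowest control. Its relative ETV5 fell from 2443, 2653 and 2490 to 353, 332 and 923, again with replicate 3 above the other treated libraries, while ETV1 fell less (log2 fold change -0.69), and that call was lost with any of 3 libraries left out (adjusted p = 0.061 without DMSO replicate 2, 0.050 without DMSO replicate 3 and 0.060 without BRAFi + MEKi replicate 3) or with libraries rescaled (0.053). FOSL1, an AP-1 subunit, fell from 9676, 7966 and 12175 to 247, 229 and 236 (log2 fold change -5.36, SE 0.19), and the immediate early factor EGR1 from 401, 404 and 510 to 13.5, 30.4 and 28.8 (-4.19, SE 0.34). The AP-1 gene JUN, which was listed with the undifferentiated state and not with ERK output, moved the other way. It was at 466, 434 and 756 under DMSO and at 10223, 10316 and 10058 under BRAFi + MEKi (chromosome 1, 58776845 to 58784048, log2 fold change 4.25, SE 0.32, adjusted p = 3.2e-07). FOSL2 was at 2354, 2363 and 3250 against 3066, 3180 and 2227, so that its groups overlapped (adjusted p = 0.67). ETS1 was the list member that rose (log2 fold change 0.47, adjusted p = 0.016), and it missed the threshold without DMSO replicate 3 (adjusted p = 0.072) or BRAFi + MEKi replicate 1 (0.058). MYC fell from 376, 318 and 460 to 93.6, 89.9 and 119, and the chromatin protein gene HMGA1 from 23786, 24305 and 36110 to 2041, 2003 and 2663.

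**Figure D1:**
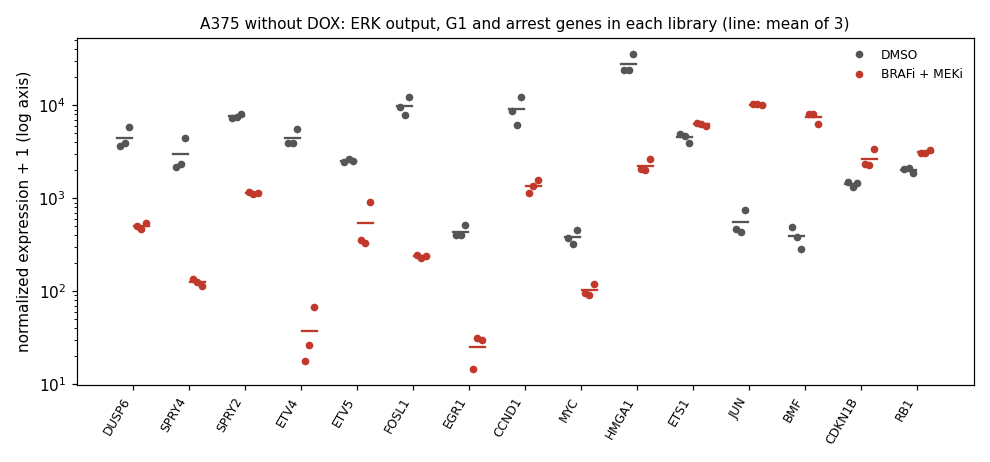
Normalized expression + 1 on a log axis for 15 genes in the 3 DMSO (grey) and 3 BRAFi + MEKi (red) libraries of A375 without DOX, each point a library and each line the mean of 3. ERK output genes from DUSP6 to HMGA1 sit lower in every treated library, ETS1, CDKN1B and RB1 sit slightly higher, and JUN and BMF sit more than 10 times higher.

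The kinases of the pathway itself changed less. BRAF was at 1610, 1678 and 1490 under DMSO and 1823, 1621 and 1446 under treatment, with overlapping groups (adjusted p = 0.88). MAP2K2 (MEK2) and MAPK3 (ERK1) fell with log2 fold changes of -0.84 (SE 0.16) and -1.01 (SE 0.11). MAP2K1 (MEK1) fell by 0.40 on the log2 scale (adjusted p = 0.01, and 0.072 after rescaling to equal totals). Over the 24 genes of the core pathway, 6 rose and 8 fell, near the background shares for rises, with a median of 0.04 (-0.03 without BRAFi + MEKi replicate 1). With libraries rescaled the balance turned to 8 raised and 6 lowered, with a median of 0.19. The scaffold KSR1 rose from 192, 255 and 154 to 497, 530 and 497, and the exchange factor SOS2 from 646, 583 and 602 to 1174, 1265 and 1037. RASA2, a GTPase-activating protein that turns RAS off, fell from 642, 622 and 557 to 144, 148 and 200 (log2 fold change -1.90, SE 0.19). The downstream kinase RPS6KA1 fell from 2137, 2081 and 2408 to 799, 788 and 911.

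Every measured member of the replication and mitosis lists fell. All 47 DNA replication genes and all 68 mitosis genes were called lowered, where 19.0% of all genes were, with medians of -1.98 and -3.69. The 34 genes of homologous recombination and the Fanconi pathway followed with 27 lowered, 1 raised and a median of -1.86. The summed values of the mitosis genes took 0.774% to 0.839% of a library under DMSO and 0.107% to 0.152% under BRAFi + MEKi. RRM2, the regulatory subunit of ribonucleotide reductase (chromosome 2, 10120698 to 10211725), was at 8574, 7390 and 7404 in control cells and at 129, 158 and 345 in treated cells (log2 fold change -5.33, SE 0.33, adjusted p = 5.5e-08). MCM2, a subunit of the replicative helicase, went from 5630, 5102 and 6153 to 717, 794 and 1015, and the helicase loader CDC6 from 2189, 1690 and 2459 to 313, 346 and 340. The mitotic kinase PLK1 (chromosome 16, 23677656 to 23690367) had the largest fall of its list, from 4537, 4067 and 4321 to 111, 126 and 266 (log2 fold change -4.78, SE 0.27, adjusted p = 2.5e-08). CDK1 fell from 3867, 3817 and 3893 to 279, 252 and 501, the cyclin CCNB1 from 6872, 6673 and 6304 to 441, 426 and 737, and CDC20, an activator of the anaphase-promoting complex, from 6893, 6476 and 5869 to 204, 238 and 436. Replicate 3 was the highest treated library for each of these genes except CDC6. As a median over the mitosis list its log2 difference from the DMSO mean was -3.12, beside -3.92 and -3.94 for replicates 1 and 2. The treated libraries did not overlap with the controls for any of the genes just named. The DNA repair gene BRCA1 fell from 1853, 1475 and 1757 to 390, 580 and 335. ATR, the checkpoint kinase, was the member raised (log2 fold change 0.54, adjusted p = 0.026), and it did not pass in 4 of the leave-one-out fits, with adjusted p of 0.052 and 0.099 for DMSO replicates 1 and 3 and of 0.094 and 0.084 for BRAFi + MEKi replicates 1 and 2.

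Promoter windows of these genes were searched for short motifs, and 4 examples with the letters in capitals are shown, 2 for the E2F letters of the replication list and 2 for the CHR and CCAAT letters of the mitosis list. A window ran from 250 bases before to 50 bases after the start in RefSeq, on GRCh38.p14, and both strands were read. The E2F motif was written as TTTCCCGC or TTTGGCGC, the CHR as TTTGAA, and the CCAAT box as CCAAT. The ETS motif (CCGGAAG) and the AP-1 motif (TGANTCA) were searched in the same way. None of the letters in capitals overlap each other. The 200 bases before the start are given 5′ to 3′ on the strand of the gene, for MCM3 at chr6:52284743-52284942 (minus strand) and MCM6 at chr2:135876444-135876643 (minus strand) with E2F letters, and for PLK1 at chr16:23678689-23678888 and CCNB2 at chr15:59104946-59105145 (both plus strand) with CHR and CCAAT letters. MCM3 and MCM6 also hold CCAAT in their windows, which is not marked. MCM3, MCM6 and CCNB2 were chosen after their values were seen.
MCM3: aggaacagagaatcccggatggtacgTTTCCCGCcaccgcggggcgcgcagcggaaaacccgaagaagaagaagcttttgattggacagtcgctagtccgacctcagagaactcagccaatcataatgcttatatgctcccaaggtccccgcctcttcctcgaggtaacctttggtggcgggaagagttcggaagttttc
MCM6: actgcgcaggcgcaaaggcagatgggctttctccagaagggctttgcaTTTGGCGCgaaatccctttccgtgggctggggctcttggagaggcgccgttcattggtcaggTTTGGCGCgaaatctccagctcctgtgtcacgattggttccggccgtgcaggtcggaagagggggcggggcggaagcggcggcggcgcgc
PLK1: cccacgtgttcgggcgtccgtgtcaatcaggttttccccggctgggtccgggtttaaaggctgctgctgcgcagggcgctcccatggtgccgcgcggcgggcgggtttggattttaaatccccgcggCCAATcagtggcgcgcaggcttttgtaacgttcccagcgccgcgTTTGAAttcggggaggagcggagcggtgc
CCNB2: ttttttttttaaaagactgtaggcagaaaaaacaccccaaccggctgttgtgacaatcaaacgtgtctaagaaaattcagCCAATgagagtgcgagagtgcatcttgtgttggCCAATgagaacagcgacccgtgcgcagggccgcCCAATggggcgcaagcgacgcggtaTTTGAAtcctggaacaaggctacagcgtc

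The E2F letters stood in 18 of the 41 DNA replication genes with a window (43.9%) and in 4 of 58 mitosis genes (6.90%), against 482 of 14555 among all genes tested that had one (3.31%). For the CHR the order was the reverse, with 1 of 41 replication genes (2.44%), 40 of 58 mitosis genes (69.0%) and 10.9% of all genes. The CCAAT box was in 56.1% of replication genes and 75.9% of mitosis genes beside 36.8% of all. In PLK1 and in CCNB2 the CHR letters began 29 bases before the start, and CCNB2 held 3 CCAAT boxes, beginning 120, 87 and 54 bases before it. With only the 250 bases before the start, E2F was in 13 of 41 replication genes and the CHR in 30 of 58 mitosis genes. Over all genes lowered the E2F share was 4.69% and over all genes raised 2.51%. Of the 26 ERK output genes with a window, 1 held the ETS letters (16.0% of all genes did) and 5 the AP-1 letters (5.66% of all), or 3 in the 250 bases before the start alone. These are counts of letters, with no test and no statement about binding.

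**Figure D2:**
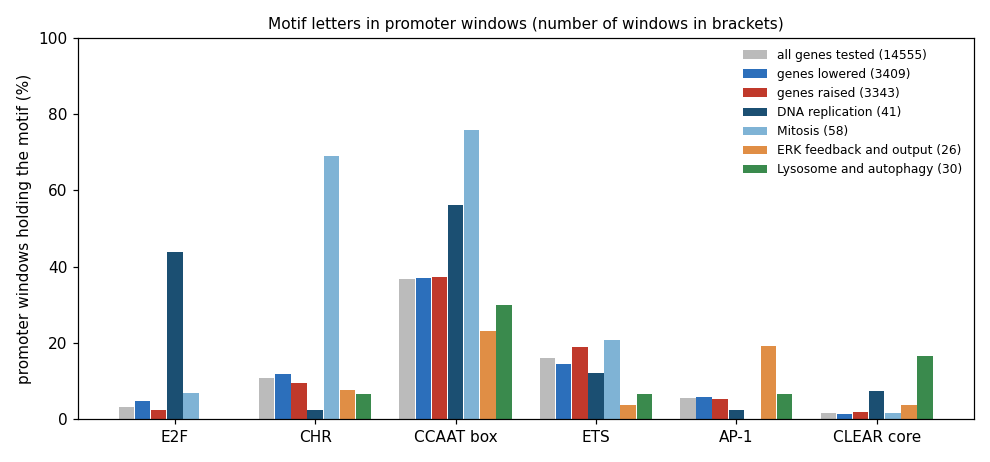
Share of promoter windows (%, from 0 to 100) that hold the letters of 6 motifs, for all genes tested, genes lowered, genes raised and 4 gene lists, with the number of windows in brackets. E2F is highest in the DNA replication list (43.9%), CHR and CCAAT box in the mitosis list (69.0% and 75.9%), and the CLEAR core in the lysosome list (16.7%).

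Among 34 G1 control genes tested, 17 fell and 5 rose (50% and 14.7%, beside 19.0% and 20.5% of all genes), with a median of -0.69. Cyclin D1 (CCND1) fell from 8705, 6164 and 12342 to 1138, 1365 and 1569 (log2 fold change -2.69, SE 0.27, adjusted p = 3.9e-06), whereas CCND3 did not pass (adjusted p = 0.54). The E2F activators fell, E2F1 from 953, 964 and 1287 to 70.9, 64.7 and 112 and E2F2 from 293, 319 and 329 to 16.7, 33.8 and 41.6, while the repressor-type E2F4 did not pass (log2 fold change -0.14). Of the cell-cycle inhibitors, CDKN1B, which encodes p27, rose from 1490, 1313 and 1461 to 2328, 2299 and 3356 (log2 fold change 0.88, SE 0.14), and CDKN2C, which encodes p18, from 1731, 1645 and 1418 to 3510, 3412 and 2980. RB1 and its relative RBL2 rose by log2 fold changes of 0.64 and 0.42, and the antiproliferative gene TOB1 by 0.65. CDKN1A, which encodes p21, was at 11628, 10598 and 5855 against 6979, 7094 and 3677. Its groups overlapped, because DMSO replicate 3, at 5855, lay below the treated values of 6979 and 7094, and the adjusted p was 0.16. Replicate 3 was the lowest library in each group. CDK4 was lower in every treated library without passing (adjusted p = 0.06). FOXO targets and growth-arrest genes went the other way, with 18 of 30 raised, 4 lowered and a median of 0.76 beside backgrounds of 20.5% and 19.0%. GAS7, a growth-arrest gene, rose from 6755, 6652 and 5214 to 26664, 27192 and 18507, and TP53INP2, which acts in autophagy, from 648, 621 and 538 to 4750, 4732 and 2547. TXNIP, which restrains glucose uptake, rose from 29789, 32747 and 32800 to 47083, 45367 and 62699 (log2 fold change 0.69, SE 0.16).

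Of 30 apoptosis regulators, 4 rose and 11 fell (13.3% and 36.7%, beside 20.5% and 19.0% of all genes), with a median of -0.18. The 4 became 2 without DMSO replicate 3 or without BRAFi + MEKi replicate 1 or 2. The largest change was in BMF, a BH3-only protein that antagonizes BCL2 family members (chromosome 15, 40087890 to 40108892), which was at 495, 387 and 282 under DMSO and at 8143, 8132 and 6311 under BRAFi + MEKi (log2 fold change 4.30, SE 0.23, adjusted p = 1.8e-08). BCL2L11, which encodes BIM and is held down by ERK mainly at the protein level, was at 330, 321 and 366 against 380, 385 and 369, higher in every treated library but not past the threshold (log2 fold change 0.16, adjusted p = 0.44). Other BH3-only genes fell, PMAIP1 from 896, 907 and 1380 to 203, 127 and 168 and BIK from 64.2, 56.1 and 189 to 3.33, 2.93 and 8.77. BID fell as well (log2 fold change -1.25), and BBC3 did not pass (-0.14, adjusted p = 0.71). MCL1 was at 10258, 10315 and 11109 against 9647, 9246 and 8765 (adjusted p = 0.13), and BCL2L1 fell by 0.63 on the log2 scale. The death receptor gene TNFRSF10A fell from 498, 506 and 596 to 98.0, 67.1 and 66.7. The pore-forming effectors BAX and BAK1 did not pass (adjusted p = 0.53 and 0.35).

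Pigmentation genes rose more often than they fell, though most did not pass. Of 26 tested, 10 rose, 1 fell and 15 did not pass, with a median of 0.52. The shares were 38.5% raised and 3.85% lowered, beside 20.5% and 19.0% of all genes. MITF, the master regulator of the melanocyte lineage, rose from 685, 905 and 1103 to 2665, 2391 and 2785 (log2 fold change 1.56, SE 0.15, adjusted p = 2.4e-06), and SOX10 from 16198, 16487 and 14722 to 24854, 24386 and 20819. DCT, a melanin-synthesis enzyme (chromosome 13, 94436811 to 94479682), was the largest rise in the full data, by a value that moved with single libraries. It was at 105, 90.7 and 2.23 under DMSO and at 13702, 12968 and 1247 under BRAFi + MEKi (log2 fold change 7.58, SE 1.36, adjusted p = 0.00053). Replicate 3 was far below the others in both groups, and leaving out 1 library at a time gave log2 fold changes between 5.94 (without DMSO replicate 3) and 8.72 (without BRAFi + MEKi replicate 3). TYR and TYRP1, the neighbouring enzymes of the same route, did not pass (adjusted p = 0.28 and 0.23), with TYR listed at 0 in every control. GPNMB, a glycoprotein of pigment and lysosome-rich cells, rose from 3808, 4021 and 4158 to 14589, 14842 and 6698, and the protease gene CAPN3 from 12.5, 14.9 and 4.45 to 156, 136 and 108. PMEL rose from 35.0, 26.9 and 25.3 to 48.5, 153 and 118. CDH3 was the member lowered (log2 fold change -1.95, adjusted p = 0.045), a call lost in 8 of its 13 alternative fits, among them those without DMSO replicate 1, 2 or 3 and without BRAFi + MEKi replicate 1 or 2.

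Genes of the neural crest and undifferentiated state were split, with 11 of 31 raised and 12 lowered (35.5% and 38.7%, beside 20.5% and 19.0% of all genes). The list median was -0.61, and -0.30 without DMSO replicate 3. AXL, a receptor kinase of the undifferentiated state, fell from 8677, 8747 and 9494 to 2652, 2527 and 2405 (log2 fold change -1.83, SE 0.11, adjusted p = 4.4e-08), and the WNT inhibitor DKK1 from 1550, 1389 and 1223 to 264, 256 and 199. MEF2C, a transcription factor that acts in neural crest, rose from 731, 848 and 636 to 5348, 5074 and 4723. NGFR, the nerve growth factor receptor that marks neural crest-like melanoma cells, did not pass in the full data. It was at 682, 727 and 1605 under DMSO and at 2743, 2739 and 600 under treatment. Replicate 3 was thus the highest library under DMSO and the lowest under treatment. Without BRAFi + MEKi replicate 3 the log2 fold change of NGFR was 1.56 (adjusted p = 0.032) in place of 0.83 (adjusted p = 0.29). SOX9 was at 37.4, 59.4 and 326 against 36.4, 47.1 and 32.4 (adjusted p = 0.20). Of 34 growth factor receptors, 9 rose and 11 fell (26.5% and 32.4%, beside 20.5% and 19.0% of all genes) around a median of 0.00, which lay between -0.08 and 0.03 with 1 library left out. With libraries rescaled 11 rose and 9 fell (median 0.08). The 11 falls became 7 without DMSO replicate 3 or BRAFi + MEKi replicate 2. ERBB3, the neuregulin receptor, rose from 7460, 7792 and 5701 to 14813, 15158 and 12777, and FLT1, a VEGF receptor, from 831, 877 and 712 to 3266, 2938 and 3521. EGFR fell from 814, 807 and 1377 to 241, 235 and 292, and PDGFRB did not pass (log2 fold change 0.01, adjusted p = 0.98). NTRK2, a neurotrophin receptor, rose from 22.3, 29.0 and 26.3 to 107, 101 and 415. MERTK, which binds the same ligand family as AXL, rose from 18.8, 28.03 and 16.3 to 221, 196 and 143.

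Of 41 cytokines and chemokines tested, 20 fell, 5 rose and 16 did not pass, with a median of -1.38. The shares were 48.8% lowered and 12.2% raised, beside 19.0% and 20.5% of all genes. CXCL8, the neutrophil chemokine IL-8 (chromosome 4, 73740519 to 73743716), was at 11570, 10362 and 9154 in DMSO and at 83.9, 68.7 and 62.7 in BRAFi + MEKi (log2 fold change -7.16, SE 0.25, adjusted p = 8.8e-10), on average 144-fold lower. IL1B fell from 1668, 1598 and 1876 to 20.2, 30.1 and 6.66. CSF2, which encodes GM-CSF, was at 81.0, 83.1 and 92.5 in the controls and was listed at 0 in all 3 treated libraries. CCL2, by contrast, was at 4482, 4200 and 2146 against 3882, 3657 and 3146 and did not pass (adjusted p = 0.91), and IL6 was low with overlapping groups, at 40.2, 14.5 and 3.94 against 2.14, 7.99 and 4.50 (adjusted p = 0.25). IL16 rose from 20.6, 17.1 and 38.7 to 432, 527 and 333 and the TGF-β ligand TGFB3 from 77.6, 84.9 and 77.7 to 211, 207 and 200. The growth factor PDGFB fell from 208, 222 and 245 to 12.6, 19.0 and 45.2.

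**Figure D3:**
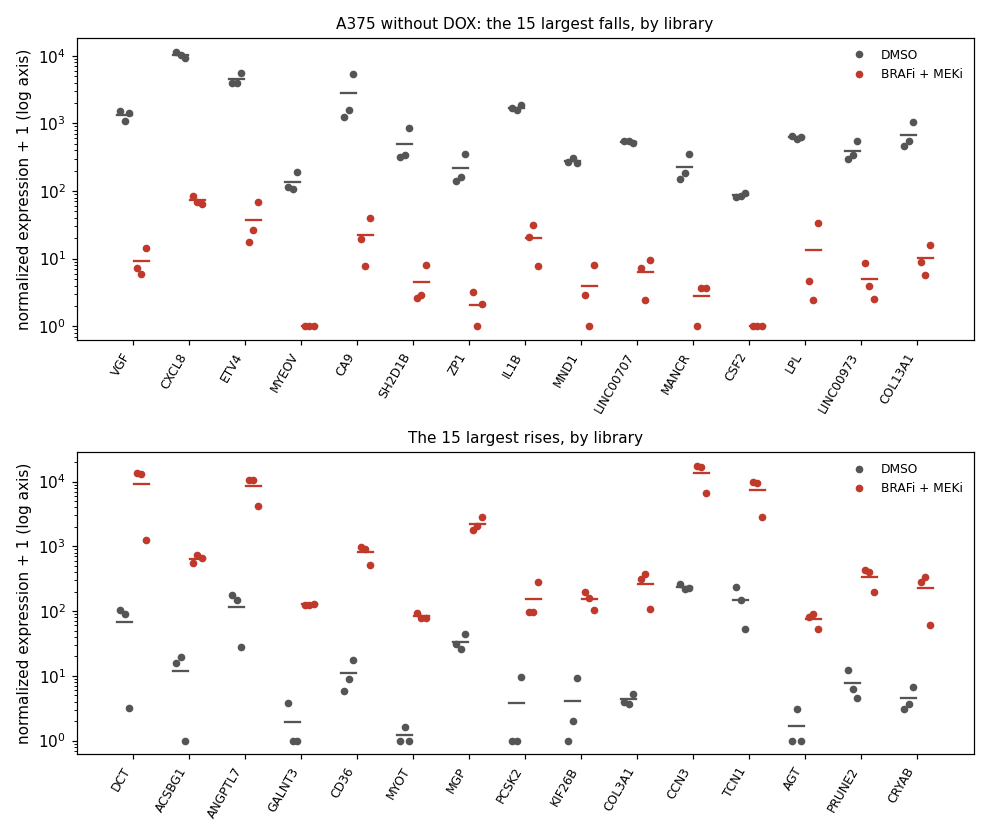
Normalized expression + 1 on a log axis for the 15 largest falls (upper panel) and 15 largest rises (lower panel) among called genes that have a symbol, with a mean of at least 30 and groups that do not overlap, with grey points for DMSO, red for BRAFi + MEKi and lines for means of 3. MYEOV and CSF2 sit at the floor in all 3 treated libraries, and for DCT the third treated library sits lower than the other two.

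The 15 largest falls by size held ETV4, CXCL8, IL1B and CSF2, described above, COL13A1 of the matrix list, and 10 others. VGF, a secreted neuropeptide precursor (chromosome 7, 101162509 to 101165569), had the largest fall of all genes tested, from 1519, 1073 and 1404 to 6.26, 4.91 and 13.3 (log2 fold change -7.28, SE 0.43). The carbonic anhydrase gene CA9, which is known as a hypoxia marker, was at 1242, 1603 and 5469 in the controls, with DMSO replicate 3 above the others, and at 18.4, 6.73 and 39.3 after treatment. LPL, lipoprotein lipase, dropped from 649, 579 and 638 to 3.70, 1.43 and 32.2, and MND1, a meiotic recombination factor, from 270, 310 and 263 to 1.89, 0 and 6.95. The noncoding RNAs LINC00707, LINC00973 and MANCR and the genes SH2D1B and ZP1 completed this group with MYEOV, which was at 114, 106 and 190 in DMSO and listed at 0 in every treated library. On the rising side, CD36, a fatty acid receptor (chromosome 7, 80369575 to 80679277), went from 4.87, 7.99 and 16.9 to 994, 904 and 518 (log2 fold change 6.31, SE 0.39, adjusted p = 4.8e-08). ACSBG1, a long-chain acyl-CoA synthetase, rose from 14.6, 18.3 and 0 to 549, 727 and 652, and MGP, matrix Gla protein, from 29.9, 24.995 and 43.7 to 1780, 2029 and 2800. The secreted proteins ANGPTL7, CCN3 and TCN1 reached 10698, 17504 and 9817 in the first treated library and 4266, 6774 and 2865 in the third, all far above their highest controls of 174, 265 and 233. GALNT3, MYOT, PCSK2, KIF26B, COL3A1, AGT, PRUNE2 and the chaperone CRYAB made up the rest, each with a control mean of under 10.

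Of 57 cytosolic ribosomal protein genes, 54 fell and none rose, with a median of -0.79 (-0.64 with libraries rescaled, and -0.49 with 40 lowered and 1 raised under quantile normalization), and together they took 8.44% to 8.83% of a library under DMSO and 4.86%, 5.05% and 6.48% under treatment, replicate 3 being the highest. RPL3 fell from 117605, 117162 and 119031 to 52272, 54072 and 73984. Among 46 MYC targets in ribosome biogenesis, 33 fell and 1 rose, with a median of -0.67. FBL, the nucleolar methyltransferase fibrillarin, fell from 6591, 6753 and 6680 to 1261, 1311 and 2043, and the spermidine synthase gene SRM was the member that rose, from 2471, 2230 and 2341 to 7631, 7905 and 4926. For all lists of this paragraph the background was 19.0% lowered and 20.5% raised, against which 94.7% of ribosomal protein genes and 71.7% of MYC targets were lowered. Aminoacyl-tRNA synthetases had 8 of 20 lowered (40%) and none raised (median -0.33). Targets of the stress factor ATF4 had 12 of 30 lowered and 2 raised (40% and 6.67%, median -0.46). The 2 became 1 in 5 of the 6 leave-one-out fits, those other than without DMSO replicate 1. In that list PHGDH and MTHFD2, enzymes of serine and one-carbon metabolism, fell with log2 fold changes of -1.85 and -1.82, whereas ATF3 rose from 313, 300 and 206 to 1891, 1954 and 720, and ATF4, DDIT3 and ASNS did not pass.

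Of 29 glycolysis genes 26 fell and 2 rose, with a median of -1.27, and the 2 became 1 without any DMSO replicate or without BRAFi + MEKi replicate 1 or 2. For this and the following metabolic lists the background was 19.0% lowered and 20.5% raised. The lactate dehydrogenase gene LDHA fell from 32464, 37460 and 55186 to 9438, 9082 and 11698, HK2 from 3374, 3718 and 5022 to 1262, 1097 and 1066, and PDK1, a mitochondrial kinase that inhibits pyruvate dehydrogenase, from 1483, 1629 and 2104 to 233, 292 and 332. DMSO replicate 3 was the highest library for each of these, and without it the list median was -1.04. PFKFB2 rose (log2 fold change 0.96). Of 24 cholesterol genes, 15 fell and 1 rose (median -0.62), and of 12 fatty acid genes 9 fell and 1 rose (median -1.20), with 0 raised without DMSO replicate 3 or BRAFi + MEKi replicate 1. FASN fell from 15158, 13012 and 16500 to 3338, 3463 and 3489 and the desaturase gene FADS1 from 10860, 10973 and 11390 to 2170, 2122 and 2394. Nuclear genes of oxidative phosphorylation had 21 of 48 lowered and none raised (median -0.34), a count of 11 without DMSO replicate 1 and of 9 with 3 raised when libraries were rescaled. Of the 13 mitochondrially encoded mRNAs, 5 rose and none fell (median 0.31, and 0.53 without DMSO replicate 2 or 0.72 under quantile normalization), led by MT-ND1 from 3876, 5265 and 3699 to 13395, 12519 and 12081.

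Of 50 lysosome and autophagy genes, 31 rose and 4 fell, with a median of 0.70, where 20.5% and 19.0% of all genes were called. PSAP, the saposin precursor, rose from 27043, 27202 and 31558 to 105680, 105593 and 80716 (log2 fold change 1.76, SE 0.13, adjusted p = 2.8e-07). The membrane protein gene LAMP1 rose from 4244, 4441 and 3425 to 8516, 8436 and 6369, and the cathepsins CTSF and CTSO by log2 fold changes of 2.21 and 2.49. CTSB did not pass (log2 fold change 0.01), nor did TFEB (0.50, adjusted p = 0.24), a transcription factor of these genes. The 4 falls were 2 without DMSO replicate 3, without BRAFi + MEKi replicate 2 or 3, and with libraries rescaled. The CLEAR core, written as the palindrome TCACGTGA, stood in 5 of the 30 members with a promoter window (16.7%) and in 1.59% of all windows of genes tested. GAA (chr17:80101381-80101580) and MCOLN1 (chr19:7522424-7522623), both on the plus strand and both chosen after their values were seen, are shown because each held it 2 times in the 200 bases before the start.
GAA: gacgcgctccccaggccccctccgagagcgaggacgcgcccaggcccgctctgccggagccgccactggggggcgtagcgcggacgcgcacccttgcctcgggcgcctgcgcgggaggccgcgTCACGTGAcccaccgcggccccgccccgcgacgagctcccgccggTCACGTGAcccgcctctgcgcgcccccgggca
MCOLN1: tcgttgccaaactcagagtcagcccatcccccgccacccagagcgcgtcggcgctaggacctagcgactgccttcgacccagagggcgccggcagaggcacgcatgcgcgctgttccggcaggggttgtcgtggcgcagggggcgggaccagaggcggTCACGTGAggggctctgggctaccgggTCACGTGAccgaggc
GAA, the lysosomal glucosidase, rose from 4290, 4045 and 4194 to 8380, 8515 and 7561, and MCOLN1, a calcium channel of the lysosome, from 331, 271 and 354 to 750, 764 and 663. The same letters were in 3 of 41 DNA replication genes (7.32%), all of which fell.

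Interferon and antigen presentation genes rose as a majority, but on calls that depended on single libraries. Of 47 genes, 27 rose and 3 fell (57.4% and 6.38%, beside 20.5% and 19.0% of all genes), with a median of 0.75. The 27 became 14 without DMSO replicate 3, 12 without BRAFi + MEKi replicate 1 and 14 without BRAFi + MEKi replicate 2. The 3 falls became 1 without DMSO replicate 1, without BRAFi + MEKi replicate 3 or with libraries rescaled, while the list median stayed between 0.62 and 0.92 with any of the 6 libraries left out. B2M, the light chain of MHC class I, rose from 28967, 27130 and 27363 to 57849, 59568 and 45155 (log2 fold change 0.95, SE 0.12, adjusted p = 3.9e-05). IFI27 rose from 0.921, 8.48 and 0.142 to 62.9, 30.7 and 25.5, and ISG20 fell from 1464, 1531 and 2430 to 668, 669 and 605.

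Of 57 matrix and adhesion genes, 16 rose and 26 fell (28.1% and 45.6%, beside 20.5% and 19.0% of all genes), with a median of -0.41. COL13A1 fell from 461, 551 and 1040 to 8.05, 4.75 and 14.9, and SERPINE2, a secreted protease inhibitor, from 129354, 134024 and 185600 to 21842, 21876 and 26344, on average 6.41-fold. The fibrillar collagens COL3A1 and COL5A2 rose, COL3A1 from 2.995, 2.74 and 4.33 to 316, 373 and 105 and COL5A2 from 25195, 27147 and 14270 to 98150, 98243 and 71291, whereas COL1A1 fell (log2 fold change -1.32, adjusted p = 0.01, and 0.055 without DMSO replicate 1 or 0.053 without BRAFi + MEKi replicate 2). ITGA2, the collagen-binding integrin subunit, rose from 1487, 1419 and 1727 to 14588, 14030 and 9378. FN1 was at 5130, 5596 and 23969 in the controls, with replicate 3 apart, and at 5096, 5206 and 2782 under treatment (adjusted p = 0.11). YAP and TEAD targets had 15 of 28 lowered and 4 raised (53.6% and 14.3%, median -0.34), and the 4 became 2 without DMSO replicate 2 or BRAFi + MEKi replicate 1 or 2. CCN1 fell from 2816, 2766 and 2250 to 661, 668 and 794, while CCN2 did not pass in the full data (log2 fold change -0.21, adjusted p = 0.47) and did without BRAFi + MEKi replicate 3 (adjusted p = 0.007). Of 41 axon guidance genes 16 rose and 8 fell (39.0% and 19.5%, the latter near its background of 19.0%), with a median of 0.24, and of 0.099 without DMSO replicate 2. The secreted semaphorin SEMA3C rose from 5742, 5900 and 5333 to 40380, 41305 and 37576 (log2 fold change 2.81, SE 0.09, adjusted p = 5.9e-10), and its relative SEMA3A fell from 5532, 5324 and 4601 to 1110, 1588 and 1806. Heat shock and ER folding genes had 13 of 35 raised and 6 lowered (37.1% and 17.1%, the latter near its background of 19.0%). Their median was 0.11, and 0.073 without DMSO replicate 3 or 0.17 without DMSO replicate 1, or 0.33 with 16 raised under quantile normalization. HSP90AB1 fell from 71470, 72157 and 72880 to 35871, 35838 and 42110, and HSPA5 did not pass (adjusted p = 0.46).

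Among nuclear receptors and retinoid response genes, 12 of 37 rose and 12 fell (32.4% each, beside 20.5% and 19.0% of all genes). Their median of 0.06 lay between -0.09 and 0.14 with 1 library left out. It was -0.19 among members with a group mean of at least 30 and 0.22 with libraries rescaled. NR2F1, the orphan receptor encoded by the inducible cDNA (chromosome 5, 93583222 to 93594611), rose without DOX from 497, 405 and 563 to 1327, 1223 and 1431 (log2 fold change 1.45, SE 0.27, adjusted p = 0.0007). Transcripts of the cDNA and of the endogenous gene share these reads, and the library kit does not mark strand, so NR2F1-AS1, which overlaps the start of the gene, cannot be told apart there (log2 fold change 1.46). With DOX the values were 17271 to 31632 under DMSO and 14995 to 35683 under BRAFi + MEKi. NR2F2 did not pass (log2 fold change 0.06, adjusted p = 0.81). RARB, a retinoic acid receptor, rose from 486, 462 and 578 to 1156, 1152 and 1524, the retinaldehyde reductase gene DHRS3 from 4188, 4041 and 4230 to 12583, 12599 and 13450, and CYP26B1, which degrades retinoic acid, from 77.4, 85.8 and 93.5 to 444, 467 and 408. THRB, a thyroid hormone receptor, fell from 637, 543 and 685 to 142, 143 and 125.

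**Figure D4:**
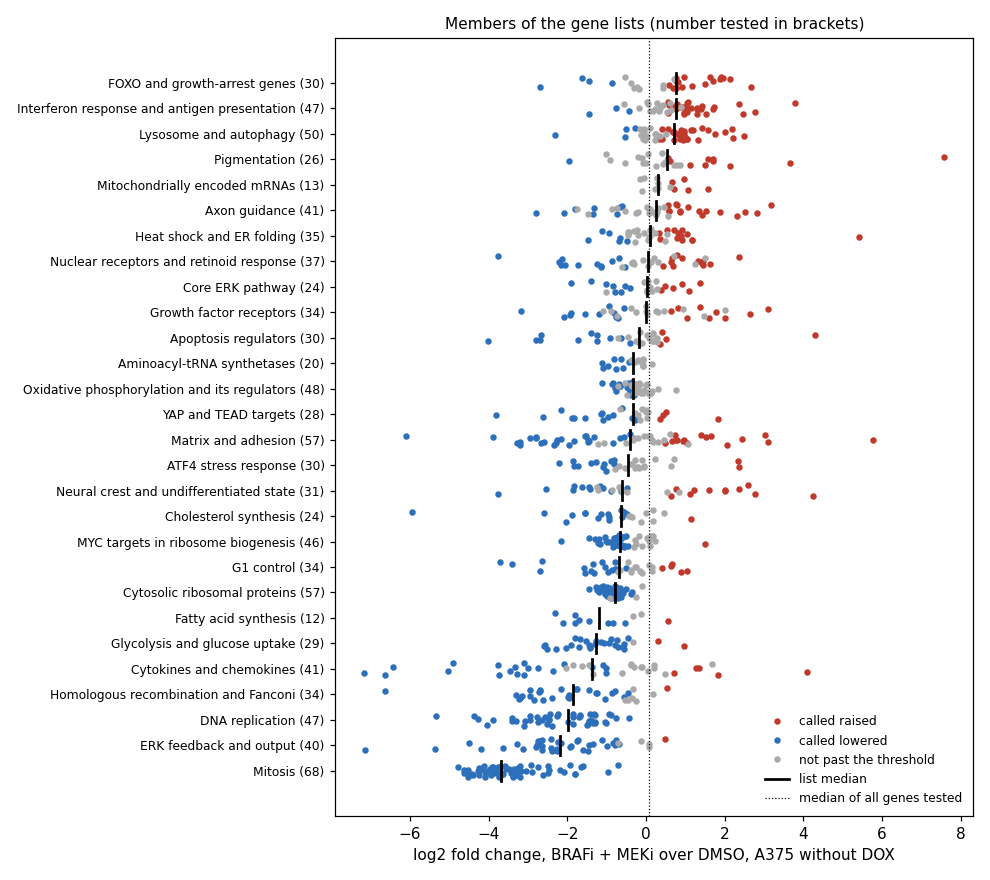
Log2 fold change of BRAFi + MEKi over DMSO in A375 without DOX for each tested member (point) of 28 gene lists, ordered by list median (black bar), with red for called raised, blue for called lowered, grey for not past the threshold and a dotted line at the median of all genes (0.06). Medians run from -3.69 for mitosis to 0.76 for FOXO and growth-arrest genes.

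The response was then compared with that of the same line with DOX, which raises NR2F1. The design does not separate DOX from NR2F1. In the cells with DOX 3951 genes rose and 3615 fell. The difference between both responses was past the threshold for 107 genes with a higher log2 fold change with DOX (0.439% of 24370) and for 5 with a lower one (0.0205%). Counts here moved with the libraries: leaving out 1 of the 12 gave 40 to 209 differing genes in place of 112, the highest without BRAFi + MEKi replicate 3 and 60 or fewer without DMSO replicate 1, 2 or 3, DMSO + DOX replicate 2 or 3, or BRAFi + MEKi replicate 1 or 2. Cell-cycle genes supplied many of the 107, with 31 of 68 mitosis genes, 15 of 47 replication genes and 10 of 34 recombination genes, none lower. The mitosis list median was -3.69 without and -1.82 with DOX, and the replication list -1.98 and -1.09. The third replicates with DOX stood apart in the mitosis list: relative to the mean of DMSO + DOX, DMSO + DOX replicate 3 was at -0.32 beside 0.22 and 0.13, and BRAFi + MEKi + DOX replicate 3 at -1.30 beside -1.99 and -2.03. DMSO + DOX replicate 3 also stood apart in ATF4 targets, at 0.85 beside -0.45 and -0.44. Without these libraries the differing genes over all those tested numbered 60 and 73. ERK output had medians of -2.20 and -2.12 and 0 of 40 genes past the threshold for the difference. CDC20 was at 6412 ± 515 (SD, n = 3) under DMSO and 293 ± 126 under BRAFi + MEKi without DOX, and at 4963 ± 1221 and 1394 ± 240 with it (difference in log2 fold change 2.71, SE 0.34, adjusted p = 0.0042). RRM2 differed by 2.89 (adjusted p = 0.015), and SEMA3C rose less with DOX, by 0.64 on the log2 scale (adjusted p = 0.032), though the call of RRM2 was lost with any of 4 of the 12 libraries left out and that of SEMA3C with any of 11.

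Against 1205Lu, whose response was 3655 genes raised and 3191 lowered of 22144 tested, 1781 genes had a higher log2 fold change in A375 (6.65% of 26779) and 2164 a lower one (8.08%). With libraries rescaled to equal totals that balance turned, to 2164 higher and 1816 lower. For mitosis genes the medians were -3.69 and -2.31, and 43 of 68 were past the threshold for the difference, all lower in A375. The replication medians were -1.98 and -1.78, with 10 of 47 lower and 2 higher in A375. A treated library of 1205Lu stood apart in both lists: against the DMSO mean, replicate 1 had a replication median of -2.47 beside -1.20 and -1.21, and a mitosis median of -3.18 beside -1.85 and -1.97. Cholesterol genes had 12 of 24 higher and 1 lower in A375 and medians of -0.62 and -1.81. Mitochondrially encoded mRNAs, raised in 5 of 13 in A375, were lowered in 7 of 13 in 1205Lu, and 9 of 13 differed. ERK output genes were balanced, with 6 higher and 6 lower. CD36 rose in A375 and stayed near the floor in 1205Lu, at 4.198 ± 6.01 and 4.53 ± 4.56 (difference 6.02, SE 1.32, adjusted p = 0.0022). DRD2, a dopamine receptor, rose in A375 from 46.8 ± 8.48 to 473 ± 113 and fell in 1205Lu from 879 ± 133 to 172 ± 4.45 (difference 5.63, SE 0.70, adjusted p = 2e-06).

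The contrast with WM793 was wider. WM793 had 4512 genes raised and 3724 lowered of 22074, and 2705 genes had a higher log2 fold change in A375 (10.1% of 26779) and 3412 a lower one (12.7%). In WM793 the mitosis median was -0.26, with 24 of 68 lowered and 5 raised, and 67 of 68 differed from A375, all lower in A375. For DNA replication, 40 of 47 were lower in A375 and the WM793 median was -0.24. ERK output had a WM793 median of -1.49, with 31 of 40 lowered there, and 10 lower and 6 higher in A375. Ribosomal protein genes had medians of -0.79 and -1.42, with 37 of 57 higher in A375, and 27 of 46 MYC targets in ribosome biogenesis were also higher there. ATF4 targets had medians of -0.46 in A375 and 0.37 in WM793 (14 of 30 lower in A375), YAP and TEAD targets -0.34 and 0.71 (15 of 28 lower, 3 higher), and interferon genes 0.75 and 1.68 (13 of 47 lower, 1 higher). PDGFB fell in A375 and rose in WM793 from 72.2 ± 66.8 to 2149 ± 580 (difference -9.12, SE 1.25, adjusted p = 2.7e-06), while MGP rose in A375 and in WM793 was at 563 ± 219 under DMSO and 167 ± 43.2 under BRAFi + MEKi (difference 7.74, SE 0.83, adjusted p = 4.9e-08).

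**Figure D5:**
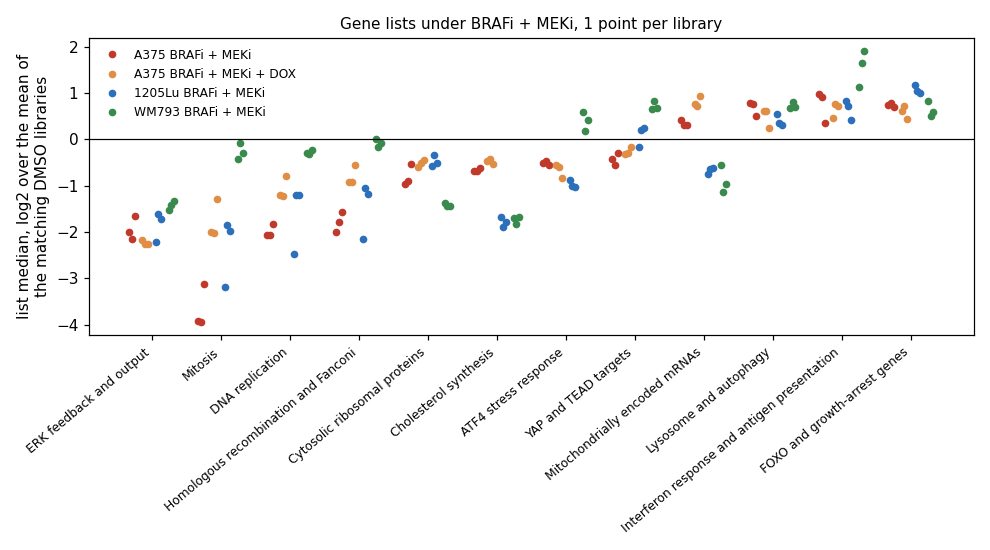
Median over the members of 12 gene lists of log2(value + 1) minus the mean of the DMSO libraries of the same line and DOX arm, with 1 point for each BRAFi + MEKi library of A375 without DOX, A375 with DOX, 1205Lu and WM793. ERK output lies between -1.34 and -2.26 in all 12 libraries, while mitosis lies between -3.12 and -3.94 in A375 without DOX and between -0.07 and -0.42 in WM793.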

How the data were processed

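RNA of 36 libraries was measured by RNA-Seq, and 6 of them, 3 per group, carry this comparison. Per the labels, the authors used STAR, RSEM and DESeq2 on GRCh38. The deposited signal values are expression per gene, normalized by the authors over the 36 libraries together. The values are not whole multiples of a fixed step per library, so whole reads were not recovered and no count test was run. Of 60656 gene IDs, 60401 matched GENCODE 44 and 40825 kept a symbol, and 1195 that shared one were left unnamed.

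Genes with a group mean of at least 1 were tested on log2(value + 1) with limma 3.58.1 (moderated test with a mean-variance trend) in R 4.3.3, with Benjamini-Hochberg adjustment and a threshold of 0.05. All 12 A375 libraries were fitted together, and differences between lines used all 36. Fold changes are on the log2(value + 1) scale, which understates the change of low genes. The fit was also run on simulated data, whose outcome is not given here and is not used for any result. Python 3.11.15 (numpy 2.4.6, pandas 2.3.3) made the tables.

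The comparison, the 28 gene lists and the rule for named genes were chosen with earlier results of these data known. The rule took NR2F1 and 5 pathway kinases, the 15 largest called rises and falls with a mean of at least 30 and no overlap, for each list its first 3 members and 3 largest calls in each direction, all members of 4 lists, the 5 largest differences per contrast in each direction, and the 10 highest values called in each direction. MCM3, MCM6, CCNB2, GAA and MCOLN1 lie outside it. Some genes the rule took are not reported here. The alternatives were a pseudocount of 0.1, no filter, a minimum of 30, rescaling to the same total, quantile normalization, the replicate number as a block, array weights, only the 6 libraries compared, a log2 fold change of at least 1, leaving out each library, and motifs in the 250 bases before the start only.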

Additional observations from a re-analysis of the deposited data

Results flagged for a closer look

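Differences in response between conditions or lines were flagged, each by limma's test of the difference itself. With DOX against without, 112 genes differed, against 1205Lu 3945 and against WM793 6117. By log2 difference with DOX minus without, the values were -1.19 for SYTL5, -1.12 for FREM2, -0.88 for SVIL, -0.64 for SEMA3C, 2.71 for CDC20, 2.72 for SHCBP1, 2.81 for PDGFB and 2.89 for RRM2. The calls of PDGFB, SYTL5, SEMA3C, FREM2, SVIL and RRM2 were each lost with at least 1 library left out.

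For A375 minus 1205Lu the differences were -6.93 for CA9, -6.87 for SLC24A2, -5.84 for ZP1, -5.83 for FRG2, -5.74 for ADM, 5.63 for DRD2, 6.02 for CD36, 6.04 for KIF26B, 6.73 for EVI2A and 6.75 for KRT15. CA9 and FRG2 were listed at 0 in all 6 libraries of 1205Lu, so these differences are those of A375. Their A375 DMSO libraries varied widely, at 2771 ± 2343 for CA9 and 161 ± 218 for FRG2 (SD, n = 3). KRT15 was at 138 ± 79.0 and 269 ± 310 in A375 and fell in 1205Lu from 191 ± 29.9 to 1.96 ± 2.03.

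For A375 minus WM793 they were -10.20 for DIRC3-AS1, -9.77 for MARCHF4, -9.47 for LINC03061, -9.12 for PDGFB, -9.06 for CCBE1, 6.87 for GABBR2, 7.31 for SLIT1, 7.74 for MGP, 8.28 for KIF26B and 9.72 for ACSBG1. SLIT1 was low in A375 in both groups and fell in WM793 from 2045 ± 273 to 19.5 ± 9.69 (SD, n = 3).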

How the results depend on the processing

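With a pseudocount of 0.1, no filter, a minimum of 30, quantile normalization, array weights, only the 6 libraries compared or rescaled libraries, the counts of genes raised and lowered stayed within 1.5 times the main counts of 5007 and 4628. With a log2 fold change of at least 1 they were 2724 and 2631. Leaving out 1 library gave 3987 to 4669 raised and 3887 to 4416 lowered. The count that differed by DOX was 236 with array weights and 40 to 209 with 1 library left out. For the lines, leaving out 1 library gave 3110 to 3955 (1205Lu) and 5138 to 6102 (WM793). Deviations of same-numbered libraries correlated across genes with r of 0.03, 0.06 and 0.12, so the numbers were not taken as pairs, and with the replicate block the counts were 5373 raised, 4955 lowered, and 161, 5047 and 7332 for the 3 differences. Of 286 called genes named by the rule, 246 were called with the same sign under every alternative fit, 40 lost the call at least once and none was reversed, and 22 others gained a call. The cut at a log2 fold change of at least 1 is not a fit and is not among these alternatives. Rescaling to the same total moved the list medians to -0.02 for apoptosis regulators, -0.17 for aminoacyl-tRNA synthetases, -0.30 for ATF4 targets, -0.18 for oxidative phosphorylation, -0.25 for matrix genes, -0.19 for YAP and TEAD targets, 0.40 for axon guidance and 0.27 for heat shock genes. Depth limits genes with values near 1.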
